A study of Mus musculus with 96 samples.

Results

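Among 35 single nuclei sorted into the 2N+ gate of the mouse line KPC1199EGFP, 22 carried a gained chromosome 16 and 13 did not, out of 94 single nuclei and 96 libraries in all. The groups were chosen by measured values of these same nuclei: the median ratio of the 192 bins of chromosome 16 was divided by the median of the 295 bins of chromosome 4, and a nucleus was called gained above a threshold that lay in an empty interval of this quotient, between 1.10 and 1.39. The values of chromosome 16 are therefore given as a description, while all other chromosomes were compared between the groups. KPC1199EGFP is a pancreatic cancer cell line of C57BL/6 background that carries EGFP, and both groups came from the same untreated adherent culture at passage 9. The labels give no alleles for this line and do not say whether it is 1 clone. Nuclei were sorted by the amount of DNA they hold, read from the DNA-binding dye DAPI. The labels give no limits for the 2N+, 2N and 4N gates. The 2N gate gave 47 nuclei and the 4N gate 12, and 1 bulk library each came from the 2N+ and the 2N gate.

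Aneuploidy, a departure from the balanced chromosome set, is common in cancer lines and arises when whole chromosomes or parts of them are missegregated or rejoined during cell division. Cells of 1 culture can then differ from each other in their copies of single chromosomes, and sequencing of single nuclei reads those differences directly. Mouse chromosome 16 shares a long stretch of genes with the human chromosome that is present in an extra copy in Down syndrome. The gene table available here lists 679 protein-coding genes on it. A list of 23 cancer and signalling genes was drawn up mainly around this chromosome. The number on it is therefore no measure of where such genes lie in the genome. Of the list, 17 genes lie on chromosome 16. They include the transcription factors Runx1, Erg, Ets2, Bcl6, Etv5 and Trp63, the kinase genes Dyrk1a, Gsk3b and Pak2, the adaptor Crkl, the RNA-binding protein Igf2bp2, the coactivator Crebbp, the signalling inhibitor Socs1, the Rac activator Tiam1, the amyloid precursor App and the superoxide dismutase Sod1. Genes of the list elsewhere include Cdkn2a on chromosome 4, Cdk6 on 5, Trp53 on 11, Myc on 15 and Smad4 on 18. That table is of a different genome build from the data, so genes are given by chromosome and none was placed in a bin.

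Judged by their form, the deposited values are segmented ratios to each library's own genome-wide level in 4906 bins (median width 486 kb). Read depth is therefore unknown, and limits on precision from depth cannot be given. Copies are stated with chromosome 4 set to 2. On that scale 96.1% of 595 chromosome values over the 35 nuclei (17 autosomes, without 4 and 16) lay within 0.2 of a whole number. Chromosome 4 itself was between 0.957 and 1.02 times the median of chromosomes 7, 9, 10 and 13 in these nuclei. Doubling of an entire chromosome set would leave such ratios unchanged and cannot be seen here. All nuclei came from 1 culture and are not replicates of a condition. SDs are therefore the spread of nuclei, and no p-value is given. Intervals are exact Clopper-Pearson intervals at 95% for the error of counting alone.

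The quotient of chromosome 16 over chromosome 4 had a lowest value of 1.39, a median of 1.45 and a highest value of 2.23 in the 22 gained nuclei, against 0.997, 1.04 and 1.10 in the 13 not gained nuclei. It averaged 1.55 ± 0.223 in gained nuclei and 1.04 ± 0.0307 in not gained nuclei (SD, n = 22 and 13). No nucleus of the gate lay between 1.10 and 1.39. The nuclei just inside the threshold were 34, 26 and 2, at 1.39, 1.41 and 1.42, and those just outside were 20, 22 and 24, at 1.10, 1.09 and 1.07. Of the gained nuclei, 18 had 3 copies and 4 had 4 copies. The nuclei with 4 copies were 14, 1, 11 and 30, with 3.68, 3.78, 3.94 and 4.47 copies. Nucleus 30 lay off whole numbers on chromosomes 2 and 3 as well, with 4.56 and 4.63 copies.

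**Figure D1:**
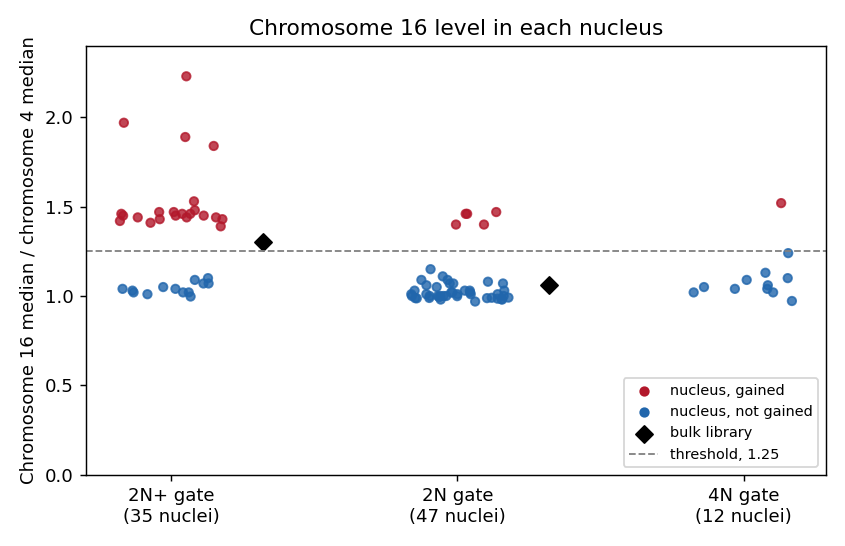
Ratio of the chromosome 16 median to the chromosome 4 median (vertical axis, no unit) for each single nucleus (dots, spread sideways for legibility) by gate, with bulk libraries as diamonds and the threshold as a dashed line. In the 2N+ gate 22 nuclei lie at 1.39 or above and 13 at 1.10 or below, while 5 of 47 nuclei of the 2N gate and 1 of 12 of the 4N gate lie above the line.

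The same rule found 22 of 35 gained nuclei in the 2N+ gate (62.9%, interval 44.9 to 78.5), against 5 of 47 in the 2N gate (10.6%, 3.55 to 23.1) and 1 of 12 in the 4N gate (8.33%, 0.211 to 38.5). The intervals of the 2N+ and both other gates did not overlap. In the 2N gate the 5 gained nuclei had quotients between 1.4 and 1.47. The single gained nucleus of the 4N gate was at 1.52 and had 112 breakpoints, and the highest nucleus below the threshold in that gate was at 1.24. The bulk library of the 2N+ gate gave 1.3, and the mean of its 35 nuclei was 1.36 ± 0.303. The bulk library of the 2N gate gave 1.06, and the mean of its 47 nuclei was 1.07 ± 0.135.

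Along chromosome 16 the gain covered the whole length in every gained nucleus. All 192 bins were at 2.5 copies or more in 22 of 22 gained nuclei, and the lowest bin in any of them was at 2.55. In 9 gained nuclei the chromosome had a single value from end to end. In 2 gained nuclei it had a step of 0.5 copies or more, in nucleus 14 at position 5403813 and in nucleus 11 at position 89199935 (mm9). Both of these nuclei had 4 copies.

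The not gained nuclei were more mixed along the chromosome. A single value covered it in 5 of 13 (nuclei 3, 10, 25, 27 and 29), and 8 of 13 had a step of 0.5 copies or more. No bin reached 2.5 copies in 6 nuclei, and some bins did in 7. In 4 of the 7 (nuclei 5, 7, 13 and 20) both ends of the chromosome were gained and the middle was not, with 45.8% to 47.9% of the bins at 2.5 copies or more. Nucleus 5 had 2.95 copies from the start to position 20285994, 1.99 up to 66290027, 2.87 up to 80661653, 1.99 up to 84241392 and 2.80 from there to the end. Nucleus 13 followed the same course, with 3.04, 2.06, 2.82, 2.13 and 3.02 copies in the matching stretches. More than 96 of the 192 bins of such a nucleus lie in its ungained stretches, so its median is that of an ungained stretch and the rule counts it as not gained.

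**Figure D2:**
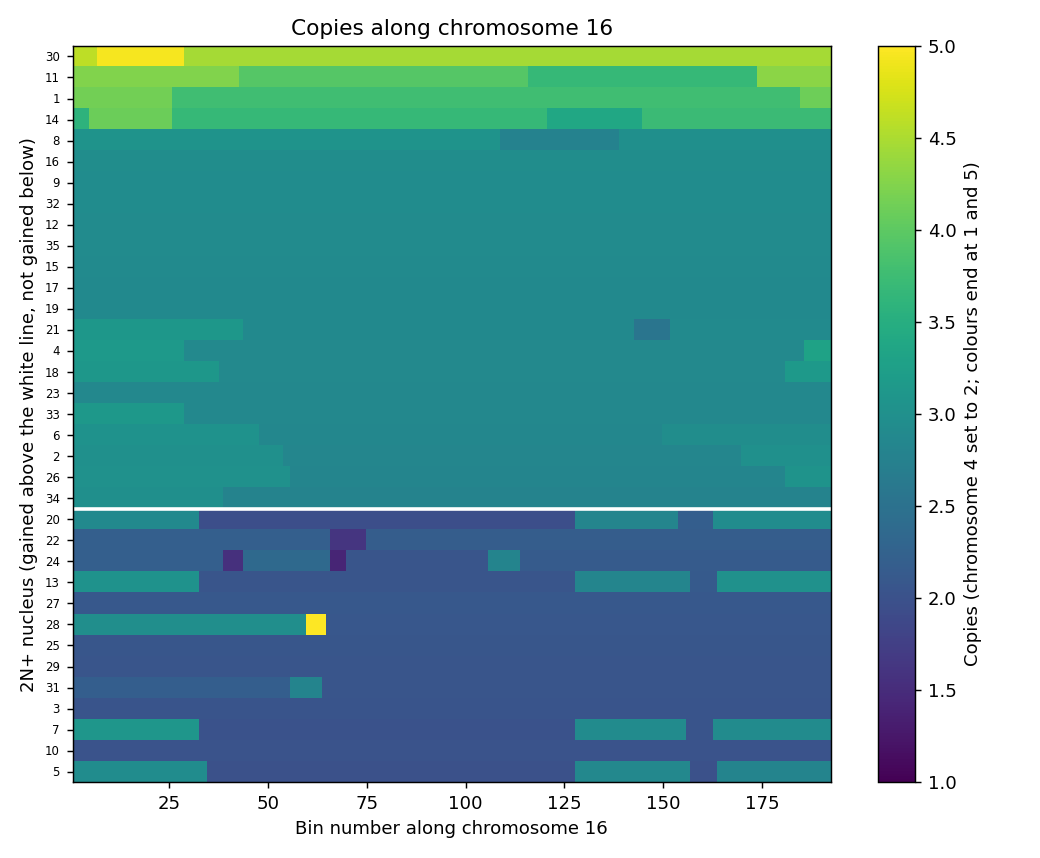
Copies (colour, with chromosome 4 set to 2; colours end at 1 and 5) in each of the 192 bins of chromosome 16 (horizontal axis, bins in order) in the 35 nuclei of the 2N+ gate (rows, by descending ratio), with the 22 gained nuclei above the white line. Every gained nucleus is at 2.55 copies or more throughout, and nuclei 5, 7, 13 and 20 below the line are gained at both ends with a middle near 2.

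The borders of this pattern were shared across nuclei of all gates. A step at 19135649 was present in 23 of the 94 nuclei, at 66290028 in 28, at 80661654 in 29 and at 83740532 in 23, and no gained nucleus of the 2N+ gate had a step at any of these 4 positions. They cut the chromosome into 5 stretches. The start (1 to 19135648, 32 bins) had 3.24 ± 0.563 copies in gained nuclei and 2.45 ± 0.454 in not gained nuclei, of which 5 of 13 were at 2.5 or more. The middle (19135649 to 66290027, 95 bins) had 3.09 ± 0.446 copies in gained nuclei and 2.06 ± 0.0595 in not gained nuclei, of which none of 13 reached 2.5. The next stretch (66290028 to 80661653, 29 bins) had 3.06 ± 0.409 copies in gained nuclei and 2.32 ± 0.378 in not gained nuclei. A short stretch (80661654 to 83740531, 6 bins) had 3.09 ± 0.425 copies in gained nuclei and 2.08 ± 0.0624 in not gained nuclei. The end from 83740532 (30 bins) had 3.12 ± 0.479 copies in gained nuclei and 2.34 ± 0.409 in not gained nuclei. These are medians of each stretch per nucleus, and the rule on the chromosome's median largely fixes that the middle is near 2 copies in the not gained nuclei. Parts of the middle were higher in nuclei 24, 28 and 31. The start was gained in 5 of the 13 not gained nuclei and the stretches on either side of the short one in 4 each.

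The pattern with both ends gained was counted only in not gained nuclei, with its share taken of all nuclei of a gate. It made up 4 of 35 nuclei (11.4%, 3.2 to 26.7) of the 2N+ gate. The 2N gate had 23 of 47 (48.9%, 34.1 to 63.9) and the 4N gate 5 of 12 (41.7%, 15.2 to 72.3). The intervals of the 2N+ and the 2N gate did not overlap, but the 35 include 22 gained nuclei, which this count leaves out. Gained nucleus 10 of the 2N gate, with both ends gained and 1.99 copies in the middle, was left out in the same way. Over not gained nuclei alone, the counts were 4 of 13 (2N+), 23 of 42 (2N) and 5 of 11 (4N), without intervals. None of the 5 stretches was gained in 8 of 35 nuclei of the 2N+ gate (22.9%, 10.4 to 40.1) and in 18 of 47 of the 2N gate (38.3%, 24.5 to 53.6). Over not gained nuclei alone, these were 8 of 13 and 18 of 42, so the order of the gates depends on the base. In nucleus 28 of the 2N+ gate the first 59 bins up to 32298761 were at 2.98 copies, the next 5 bins up to 34628957 at 5.71 and the rest at 2.09. Nuclei 22, 24 and 31, which have the most breakpoints in the gate, had short segments of their own: nucleus 31 had 8 bins at 2.81 copies from 30387471 to 34169402, nucleus 22 fell to 1.62 copies from 35088674 to 39423839, and nucleus 24 had 7 values between 1.42 and 2.8.

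Chromosome 18, which carries Smad4, a transducer of TGF-beta signalling often lost in pancreatic cancer, was the autosome that differed most in mean copies. It had a lowest value of 2.90 copies, a median of 2.98 and a highest value of 3.88 in gained nuclei, against 2.02, 2.88 and 3.75 in not gained nuclei. Of the gained nuclei 19 had 3 copies, 3 had 4 and none had 2, while 6 not gained nuclei had 2 copies, 6 had 3 and 1 had 4. The means were 3.09 ± 0.302 copies in gained nuclei and 2.63 ± 0.554 in not gained nuclei (SD, n = 22 and 13). The 2-copy state was thus present in 0 of 22 gained nuclei (interval 0 to 15.4%) and in 6 of 13 not gained nuclei (46.2%, 19.2 to 74.9), and these intervals did not overlap. With the 3 breakpoint-rich nuclei left out it was present in 0 of 22 gained and 4 of 10 not gained nuclei (40%, 12.2 to 73.8), and the intervals overlapped. The not gained nuclei with 2 copies were 5, 7 and 20, which have both ends of chromosome 16 gained, and 22, 24 and 25, which do not. In the 2N gate, 1 of 5 gained nuclei (20%, 0.505 to 71.6) and 20 of 42 not gained nuclei (47.6%, 32 to 63.6) had 2 copies of chromosome 18, and there the intervals overlapped.

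Chromosome Y, measured in 3 bins, was present in more of the gained nuclei. Of the gained nuclei 9 had no copy, 12 had 1 and nucleus 18 had 2, at 2.07. Of the not gained nuclei 12 had no copy and nucleus 28 had 1, at 0.992. At least 1 copy was present in 13 of 22 gained nuclei (59.1%, 36.4 to 79.3) and in 1 of 13 not gained nuclei (7.69%, 0.195 to 36), so the intervals came close to each other without overlapping. Without the 3 breakpoint-rich nuclei the share was 1 of 10 in not gained nuclei (10.0%, 0.253 to 44.5), and the intervals overlapped. Mean copies were 0.655 ± 0.564 in gained nuclei and 0.127 ± 0.261 in not gained nuclei. In the 2N gate, whose nuclei were grouped by the same rule on their own quotients, 3 of 5 gained nuclei (60%, 14.7 to 94.7) had chromosome Y. Of its not gained nuclei 1 of 42 (2.38%, 0.0603 to 12.6) had it, and the intervals did not overlap. The 3 gained nuclei, 8, 16 and 35, were also the ones with 4 copies of chromosome 3 and 3 of chromosome 15.

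Chromosome X reached 2 copies or more in 16 of 22 gained nuclei (72.7%, 49.8 to 89.3) and in 8 of 13 not gained nuclei (61.5%, 31.6 to 86.1), with overlapping intervals. Combining both sex chromosomes, 9 gained nuclei and 1 not gained nucleus had a Y and at least 2 copies of X. A further 4 gained nuclei and no not gained nucleus had a Y and 1 copy of X. Without a Y, 7 gained and 7 not gained nuclei had at least 2 copies of X, and 2 gained and 5 not gained nuclei had 1.

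**Figure D3:**
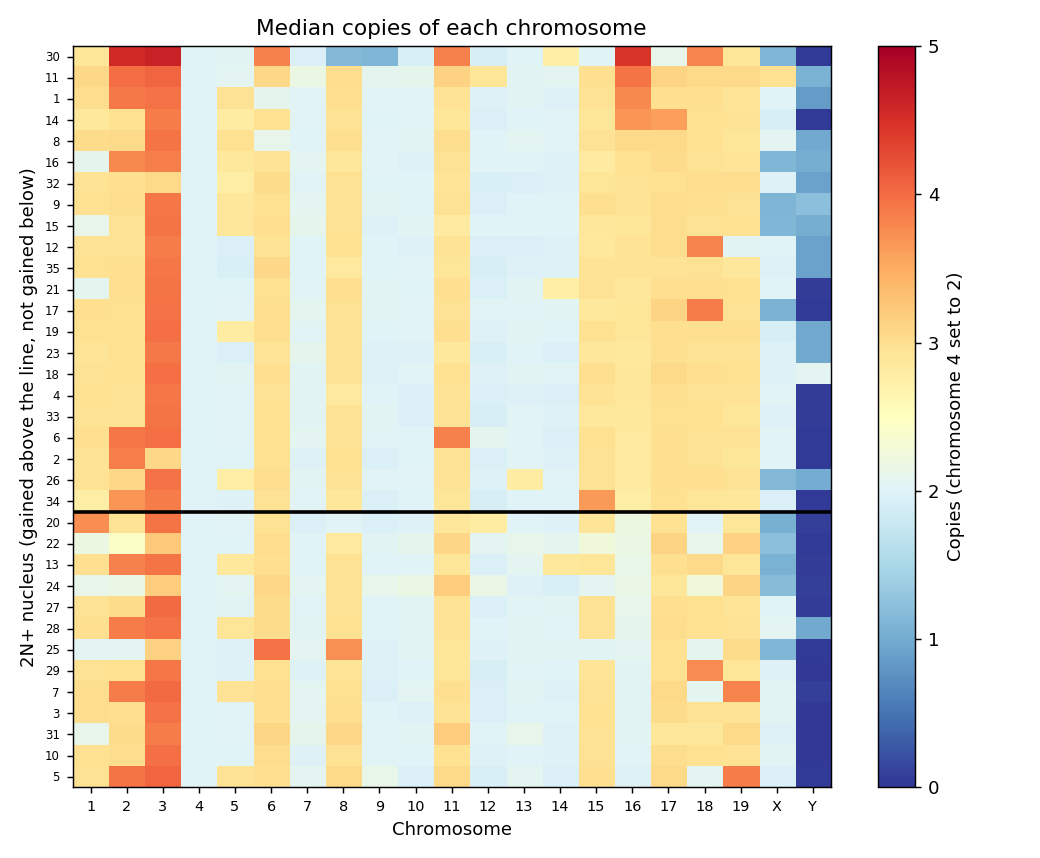
Median copies (colour, with chromosome 4 set to 2) of each chromosome (horizontal axis) in the 35 nuclei of the 2N+ gate (rows), with the 22 gained nuclei above the black line and the 13 not gained nuclei below it. Beyond chromosome 16, which defined the groups, chromosome 18 is at 2 copies in 6 nuclei below the line and none above it, and chromosome Y is present in 13 nuclei above the line and 1 below it.

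Chromosome 2 was at 3 copies in 15 gained nuclei, at 4 in 6 and at 5 in 1, while 3 not gained nuclei had 2 copies, 6 had 3 and 4 had 4. The 2-copy state was present in 0 of 22 gained nuclei (0 to 15.4%) and in 3 of 13 not gained nuclei (23.1%, 5.04 to 53.8), namely 22, 24 and 25, and these intervals overlapped. Nuclei 22 and 24 are breakpoint-rich, and 1 of 10 not gained nuclei (10.0%, 0.253 to 44.5) had 2 copies without the breakpoint-rich ones. Mean copies were 3.29 ± 0.487 in gained nuclei and 3.09 ± 0.640 in not gained nuclei.

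These 3 chromosomes were the ones that passed the naming rule among 19 compared, by a share of nuclei above or below the most common copy number that differed by 20 percentage points or a mean that differed by 0.25 copies. Without the breakpoint-rich nuclei chromosome 2 no longer passed it, with a difference in mean copies of 0.0423, and chromosome 19 did, with 0 of 22 gained and 2 of 10 not gained nuclei at 4 copies. For the 15 other autosomes the difference in mean copies, gained minus not gained, ran from -0.208 to 0.161. Chromosome 1 reached 3 or more copies in 19 of 22 gained nuclei (86.4%, 65.1 to 97.1) and in 9 of 13 not gained nuclei (69.2%, 38.6 to 90.9). Without the breakpoint-rich nuclei the direction turned, with 9 of 10 not gained nuclei (90%, 55.5 to 99.7) and a difference in mean copies of -0.128. Chromosome 3 was at 4 or more in 20 of 22 gained nuclei (interval 70.8 to 98.9%) and in 10 of 13 not gained nuclei (46.2 to 95%), or 9 of 10 without the breakpoint-rich ones. Chromosome 5, which carries Cdk6, a cell cycle kinase, was at 3 in 9 of 22 gained nuclei (40.9%, 20.7 to 63.6) and in 4 of 13 not gained nuclei (30.8%, 9.09 to 61.4), or 4 of 10 (40%) without the breakpoint-rich ones. Chromosome 15, which carries the growth regulator Myc, was at 3 or more in 21 of 22 gained and 10 of 13 not gained nuclei, or 9 of 10 not gained nuclei without the breakpoint-rich ones. Chromosome 19 had 4 copies in 0 of 22 gained and 2 of 13 not gained nuclei, namely 5 and 7. Chromosomes 7 and 10 were at 2 copies in all 35 nuclei. In the 2N gate 4 copies or more of chromosome 3 were present in 3 of 5 gained nuclei (14.7 to 94.7%) and 2 of 42 not gained nuclei (0.582 to 16.2%). There 3 copies or more of chromosome 15 were present in 3 of 5 gained and 9 of 42 not gained nuclei (10.3 to 36.8%), of chromosome 1 in 3 of 5 gained and 27 of 42 not gained nuclei (48 to 78.4%), and of chromosome 5 in 0 of 5 gained and 6 of 42 not gained nuclei. The intervals overlapped for each of these 4 chromosomes, and for chromosomes 1 and 5 the shares ran opposite to those of the 2N+ gate.

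Within the gained nuclei, the 4 with 4 copies of chromosome 16 were set beside the 18 with 3. Chromosome 2 reached 4 or more copies in 3 of 4 and 4 of 18 of these, chromosome Y was present in 2 of 4 and 11 of 18, chromosome X was at 2 or more in 3 of 4 and 13 of 18, chromosome 5 was at 3 in 2 of 4 and 7 of 18, and chromosome 18 was at 4 in 1 of 4 and 2 of 18. With 4 nuclei these shares carry wide counting error, and no order was read from them.

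Bin by bin, the group medians lay 0.5 copies or more apart in 96 of 4149 autosomal bins outside chromosomes 4 and 16 (2.31%). Gained nuclei were higher in 79 of them (1.9%) and lower in 17 (0.41%). The bins fell on 3 chromosomes, with 76 higher on chromosome 2, 17 lower on chromosome 5 and 3 higher on chromosome 18. The 3 bins on chromosome 18 (75794663 to 77312675) had 3.08 ± 0.307 copies in gained nuclei and 2.55 ± 0.568 in not gained nuclei. They were no longer called without the breakpoint-rich nuclei or with a threshold of 1.4. The rest of chromosome 18 was not called by this rule, since its medians were 2.98 in gained nuclei and 2.88 in not gained nuclei although the shares at 2 copies differed.

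**Figure D4:**
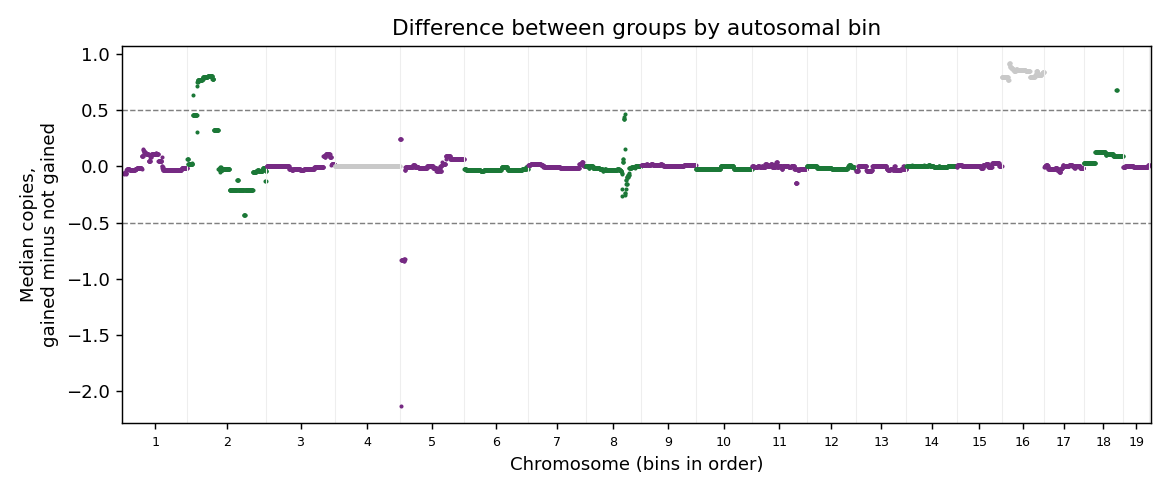
Difference in median copies, gained minus not gained nuclei (vertical axis), for each autosomal bin in genome order (horizontal axis), with dashed lines at 0.5 copies either way and chromosomes 4 and 16, which set the scale and the groups, in grey. A run on chromosome 2 lies between 0.719 and 0.808, a run near the start of chromosome 5 lies between -2.14 and -0.828, and 3 bins of chromosome 18 lie at 0.677.

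The longest run, 75 bins of chromosome 2 from 25296820 to 61941332, lay inside the chromosome. In both groups the group median of the run was below that of the whole chromosome, but this did not hold in every nucleus. It had a lowest value of 1.94 copies, a median of 2.86 and a highest value of 4.49 in gained nuclei, against 1.98, 2.06 and 3.01 in not gained nuclei. The groups overlapped, and the values fell into clusters near 2 and near 3 in each. The means were 2.72 ± 0.56 copies in gained nuclei and 2.33 ± 0.434 in not gained nuclei (SD, n = 22 and 13), a difference of 0.388. With group means in place of medians, no bin of chromosome 2 reached a difference of 0.5 copies, the highest being 0.453, so the run was called through its medians alone. The run was at 3 copies or more in 16 of 22 gained nuclei (72.7%, 49.8 to 89.3) and in 4 of 13 not gained nuclei (30.8%, 9.09 to 61.4), and the intervals overlapped. The 4 not gained nuclei were 5, 7, 13 and 28, so 3 of them have both ends of chromosome 16 gained. All 4 had 3.84 to 3.94 copies of the whole chromosome 2, so their run lay about 1 copy below it. Gained nuclei 1, 2, 6, 11, 16 and 34 likewise had 4 copies of the chromosome and 2.83 to 2.90 of the run. Gained nuclei 4, 8, 9, 14, 15, 19, 21, 26 and 33 had 3 copies of the chromosome and 2.76 to 2.97 of the run. Not gained nuclei 3, 10, 20, 27, 29 and 31 also had 3, but 1.98 to 2.06 of the run. The 6 gained nuclei near 2 copies were 12, 17, 18, 23, 32 and 35, and 5 of these 6 had a chromosome Y, against 8 of the 16 gained nuclei with 3 copies or more. In the 2N gate the direction was not the same: 0 of 5 gained nuclei (0 to 52.2%) and 6 of 42 not gained nuclei (14.3%, 5.43 to 28.5) had 3 copies or more of this run.

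A run of 17 bins near the start of chromosome 5, from 5715258 to 15924369, was highly amplified in both groups and lower in gained nuclei. It had a lowest value of 4.24 copies, a median of 6.13 and a highest value of 7.87 in gained nuclei, against 5.84, 6.97 and 8.87 in not gained nuclei. The means were 6.5 ± 0.976 copies in gained nuclei and 7.26 ± 1.24 in not gained nuclei, a difference of -0.759 that is smaller than either SD. At least 7 copies were present in 10 of 22 gained nuclei (45.5%, 24.4 to 67.8) and in 7 of 13 not gained nuclei (53.8%, 25.1 to 80.8). Moving 1 nucleus, 34, to the other group by a threshold of 1.4 left 1 of the 17 bins called, with a difference in medians of -0.428. On average the level was higher in nuclei with 3 copies of the chromosome itself than in those with 2. In nuclei with 3 copies of chromosome 5 it was 7.2 ± 0.739 in gained nuclei and 8.22 ± 0.871 in not gained nuclei (n = 9 and 4), and with 2 copies it was 6.01 ± 0.82 in gained nuclei and 6.83 ± 1.17 in not gained nuclei (n = 13 and 9). The ranges with 3 and 2 copies overlapped. They were 5.63 to 7.87 and 4.24 to 7.57 in gained nuclei, and 6.97 to 8.87 and 5.84 to 8.68 in not gained nuclei.

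**Figure D5:**
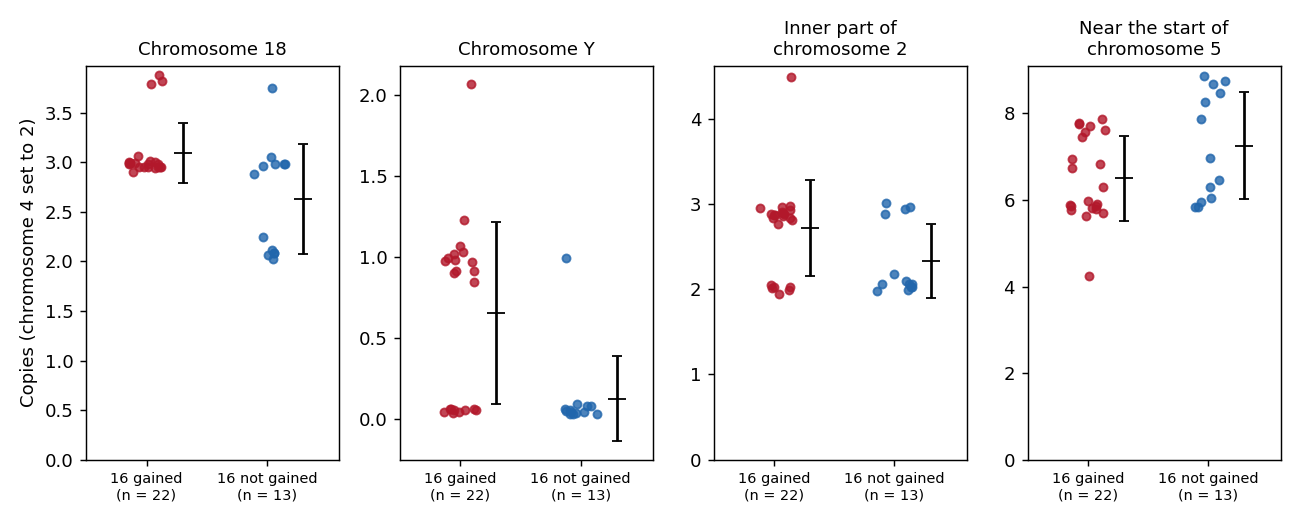
Copies (vertical axes, with chromosome 4 set to 2) of chromosome 18, chromosome Y, the run of 75 bins inside chromosome 2 and the run of 17 bins near the start of chromosome 5 in the 22 gained nuclei (red) and the 13 not gained nuclei (blue) of the 2N+ gate. Dots are nuclei, spread sideways, and bars are the mean with 1 SD of nuclei; 6 not gained nuclei lie near 2 copies of chromosome 18, and 13 gained nuclei lie near or above 1 copy of chromosome Y.

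The number of segment borders did not separate the groups. Over chromosomes 1 to X a gained nucleus had a median of 20 breakpoints (8 to 36) and a not gained nucleus also a median of 20 (10 to 91). On autosomes without chromosome 16 the medians were 18.5 (6 to 30) in gained nuclei and 15 (10 to 87) in not gained nuclei. Counting only steps of 0.5 copies or more, they were 8.5 (3 to 14) in gained nuclei and 12 (3 to 72) in not gained nuclei, so the order of the medians depends on which steps are counted. More than 60 breakpoints were present in 0 gained nuclei and in 3 not gained nuclei, 31, 24 and 22, with 72, 87 and 91. Mean autosomal copies without chromosome 16 were 2.65 ± 0.0593 (2.56 to 2.77) in gained nuclei and 2.61 ± 0.116 (2.41 to 2.77) in not gained nuclei. That difference was within the spread of either group.

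Rounded to whole copies, chromosomes 1 to X without 16 took 26 different sets of values in the 35 nuclei. There were 18 sets among 22 gained nuclei and 9 among 13 not gained nuclei, and 1 set was present in both. That shared set held 8 nuclei, the gained 4, 18, 23, 33 and 35 and the not gained 3, 10 and 27. It had 4 copies of chromosome 3, 3 copies of chromosomes 1, 2, 6, 8, 11, 15, 17, 18 and 19, and 2 copies of the other autosomes and X. These are whole-chromosome medians, and the 8 nuclei differed within chromosomes. A stretch of chromosome 2 described above was at 2.96 and 2.95 copies in nuclei 4 and 33 and at 1.99 to 2.06 in the other 6, and the amplified start of chromosome 5 was at 7.87 in nucleus 10 and at 5.76 to 6.29 in the other 7. The remaining shared sets each held 2 not gained nuclei: 5 and 7, with 4 copies of chromosomes 2 and 19, 3 of chromosome 5 and 2 of chromosome 18, and 22 and 24, with 2 copies of chromosomes 1, 2, 15 and 18 and 1 of X.

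Over the autosomal bins outside chromosomes 4 and 16, the mean absolute difference between the profiles of a pair of nuclei had a median of 0.205 copies among gained nuclei (231 pairs), 0.313 among not gained nuclei (78 pairs) and 0.264 between the groups (286 pairs). By these medians, gained nuclei were closer to each other than not gained nuclei were, and pairs across the groups lay in between. The breakpoint-rich nuclei 22, 24 and 31 are all in the not gained group. The distances were not taken without them, so their part in the higher value is unknown. The nearest profile was another gained nucleus for 17 of 22 gained nuclei and another not gained nucleus for 8 of 13 not gained nuclei. Gained nuclei made up 22 of the 35 (62.9%) and not gained nuclei the other 13, so a gained neighbour is the more frequent by number alone. A nucleus cannot be its own neighbour, so the share of its own group among its possible neighbours is slightly lower. Whether the counts of either group exceed its own share was not tested. The closest pair of all was the gained nucleus 18 and the not gained nucleus 3, 0.0413 copies apart. Nucleus 30 was the most isolated, with its nearest profile 0.579 copies away.

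The bulk library of the 2N+ gate was set beside the mean of the 35 nuclei, with the SD of single nuclei. Chromosome 18 had 2.89 copies in bulk and 2.92 ± 0.465 over nuclei, chromosome Y had 0.475 in bulk and 0.459 ± 0.536 over nuclei, chromosome X had 1.69 in bulk and 1.75 ± 0.466 over nuclei, and chromosome 2 had 3.23 in bulk and 3.22 ± 0.549 over nuclei. On chromosome 16 the start was at 2.94 copies in bulk and 2.95 ± 0.648 over nuclei, and the middle at 2.6 in bulk and 2.71 ± 0.617 over nuclei.

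The 5 gained nuclei of the 2N gate, 8, 10, 16, 25 and 35, did not all have the full-length gain seen in the 2N+ gate. Nucleus 10 had 3.0 copies at the start of chromosome 16, 1.99 in the middle and 2.8 in the rest, and it passed the threshold through the bins outside its ungained stretch. Nucleus 35 reached 3.89 copies at the end. The middle stretch was at 2.5 copies or more in 4 of these 5 nuclei, against 22 of 22 gained nuclei of the 2N+ gate and 0 of 42 not gained nuclei of the 2N gate.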

How the data were processed

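Genomic DNA of single nuclei and bulk samples was amplified with the SeqXE kit and sequenced after adapter ligation, per the labels' protocols. The submitters' processing notes name Bowtie 1.0 and the build mm9. Judged by their form, the values deposited by the authors are linear ratios to each library's own genome-wide level, already segmented, in 1 table of 4906 bins. How bins were made, whether GC content was corrected and how segments were called is not given in the sources used here. Segments hide changes shorter than the shortest segment, and because no read counts were used here the depth of each library and the noise of a bin are unknown.

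Titles gave the gate of each library. Copies are 2 times the ratio over the chromosome 4 median of the nucleus, and a chromosome's copies are the median of its bins, rounded for counts. Breakpoints are changes of value between neighbouring bins of chromosomes 1 to X, and a nucleus with more than 60 was called breakpoint-rich. A bin was called where group medians lay 0.5 copies or more apart. Borders on chromosome 16 are steps shared by 10 or more of the 94 nuclei. Positions count from 1, and a bin ends where the next begins. Named were chromosomes whose share above or below the most common copy number differed by 20 percentage points or whose mean differed by 0.25 copies, runs of 5 or more called bins, the 3 nuclei on either side of the threshold and the breakpoint-rich nuclei. Other nuclei were named once their values were known. Some genes of the list are not reported here. The members, the gene list and the rules were chosen with earlier results of these data known. The function that calls bins was tested on simulated data, with whole-copy shifts in every nucleus of the larger group. Groups that mix copy numbers, as seen here, were not simulated. Alternatives were other thresholds, denominators, bin differences and summaries, and leaving out the breakpoint-rich nuclei. Computations used numpy 2.4.6, scipy 1.17.1 and pandas 2.3.3 under Python 3.11.15, and figures matplotlib 3.10.9.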

Additional observations from a re-analysis of the deposited data

Results flagged for a closer look

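Among the 5 gained nuclei of the 2N gate, 1 nucleus stood far from the other 4 in 3 of 20 measures examined this way, by a gap to its nearest neighbour that took up most of the group's range. Chance marks about 1 in 20 such groups where values vary smoothly. Copies lie near whole numbers, so a single nucleus with another whole copy number gives such a gap by itself. That rate therefore does not apply to these copies, and the 3 marks are a description only. Nucleus 25 had 2.14 copies of chromosome 2, against 2.92 to 3.0 in the other 4. The same nucleus had 2.05 copies of chromosome 18, against 2.90 to 3.0 in the other 4. Nucleus 8 had 1.90 copies of chromosome X, against 1.05 to 1.08 in the other 4. The gained and not gained groups of the 2N+ gate, with 22 and 13 nuclei, are too large for this measure.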

How the results depend on the processing

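Over 63 results, 14 alternatives gave 333 values, of which 332 stayed within the spread of nuclei or within 1.5 times the reported count. That count is a weak check. A threshold of 1.2 and leaving out nuclei around the threshold kept the same groups, so their values only repeat the reported ones. The spread of nuclei is wide, and differences that changed sign are also among the 332. The exception was the percent of autosomal bins called, which was 1.37% with group means in place of medians, against 2.31% as reported. With means, the called bins were 22 on chromosome 5, lower in gained nuclei, and 35 on chromosome 18, higher in gained nuclei, and none lay on chromosome 2. It was 2.07% with a threshold of 1.4, 2.15% without the breakpoint-rich nuclei, 2.99% with a bin difference of 0.4 copies and 2.19% with 0.75 copies. Thresholds of 1.2 and 1.3, another denominator and the mean of bins each gave 22 gained nuclei, and a threshold of 1.4 gave 21. The mean of bins also counts the gained ends of nuclei 5, 7, 13 and 20, with 45.8% to 47.9% of chromosome 16 bins gained. How close their quotients then came to the threshold is not given. Leaving out nuclei in a band of quotients around the threshold removed none. Differences close to 0 changed sign within the spread: the median number of breakpoints, gained minus not gained, was 3.5 over all steps and -3.5 over steps of 0.5 copies or more, and mean autosomal copies differed by 0.0388 with all nuclei and by -0.00172 without the breakpoint-rich ones. Leaving out those nuclei also changed the sign of the difference in mean copies for 4 of 19 chromosomes (1, 3, 5 and 14), the mean of bins per chromosome did so for 3 (5, 8 and 11), and a threshold of 1.4 and the other denominator each did so for chromosome 17. No paired analysis was possible because the replicate numbers only name nuclei and no result came from a fitted test. Since depth is unknown, the precision of single bins could not be checked.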
